A study of Mus musculus with 7 samples.

Results

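The 9 genes described here encode growth factor receptor tyrosine kinases and were taken as a list by gene symbol: Pdgfra, Fgfr1, Fgfr2, Erbb2, Erbb3, Erbb4, Igf1r, Insr and Met. The rule for the list uses no expression value, although the list was drawn up when earlier results of these data were known. All 9 were found among the 49315 gene identifiers of the count files. Each of the 9 also passed the filter on low counts and was among the 18352 genes tested. RNA was sequenced from 7 cultures of primary oligodendroglia that had been obtained from brains of newborn mice by shake-off from mixed glial cultures and microglia depletion. Of these, 4 came from Klf13 wildtype pups (ctrl) and 3 from Klf13 knockout pups (ko), which lack the Krüppel-like transcription factor KLF13. The deletion was constitutive and not limited to oligodendroglia. All cultures had been kept in differentiating SATO medium with thyroid hormones for 6 days, and growth factors had been withdrawn with the change of medium, and proliferating cultures are not among the libraries. The labels call the libraries biological replicates but do not say whether a culture came from a single pup, so the p-values measure the spread between these cultures.

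Receptor tyrosine kinases span the cell membrane and signal as dimers, which most form when a growth factor binds, whereas the insulin and IGF1 receptors are dimers before that. The active kinases phosphorylate tyrosines that dock adaptor proteins. From there the signal runs mainly through Ras and the MAP kinases and through PI3 kinase, Akt and mTOR. In the oligodendrocyte lineage PDGFRA drives proliferation of precursor cells (OPCs), FGFR1 and FGFR2 bear on OPC proliferation and on myelin thickness, the ErbB receptors respond to neuregulins and EGF-like ligands, and the IGF1 receptor and insulin receptor promote survival and growth. MET is the receptor for hepatocyte growth factor.

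Libraries held between 24507471 and 59596479 counts on genes. The targeted gene matched the labels, as Klf13 had a mean of 11338 normalized counts in controls and 880 in knockouts (log2 fold change -3.69, adjusted p = 6.77e-06 by the quasi-likelihood F test of edgeR, used throughout). Between 6.03% and 18% of the counts lay on Gm42418, Gm23935 and Lars2, which collect ribosomal RNA reads, and both groups had libraries above and below 10%. Markers of other cell types differed between libraries. Control replicates 3 and 4 had the highest summed level of 8 fibroblast and mural cell markers (278 and 221, against 49.6 to 102 in the other libraries, as CPM per kilobase of exon), and control replicate 3 had the highest level of 7 microglia markers (615 against 133 to 250). The 8 markers of mature oligodendrocytes were all present, with a summed level of 4969 to 5415 in controls and 1518 to 1778 in knockouts. Summed levels of astrocyte markers (498 to 680 in controls, 969 to 1147 in knockouts) and neuron markers (82.1 to 106 and 159 to 228) were higher in each knockout library than in any control. Those of 7 OPC markers were 167 to 206 in controls and 211 to 229 in knockouts. None of these markers was at 0 in every library, and the 5 endothelial markers stayed at a summed level of 2.08 or less. In such bulk samples fewer cells of a type and less RNA per cell cannot be told apart, and the part of cell composition in the receptor results below was not tested.

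Of the 9 receptor genes, 3 were lower (Erbb3, Met and Fgfr2) and 2 were higher (Erbb4 and Erbb2) in the knockout at an adjusted p of at most 0.05, whereas Pdgfra, Fgfr1, Igf1r and Insr did not pass. Among all genes tested, 23.8% passed, 12.2% lower and 11.6% higher. The log2 fold changes ran from -1.46 for Erbb3 to 0.66 for Erbb4. Erbb3 and Met also reached the absolute log2 fold change of 1 that the study required, a threshold that 3.08% of all genes tested passed as lower and 3.97% as higher. The 5 genes that passed had no overlap between the 4 control and the 3 knockout libraries, which held for 36.2% of all genes tested, and the other 4 overlapped. With so small a list, these counts are a description of 9 genes.

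**Figure D1:**
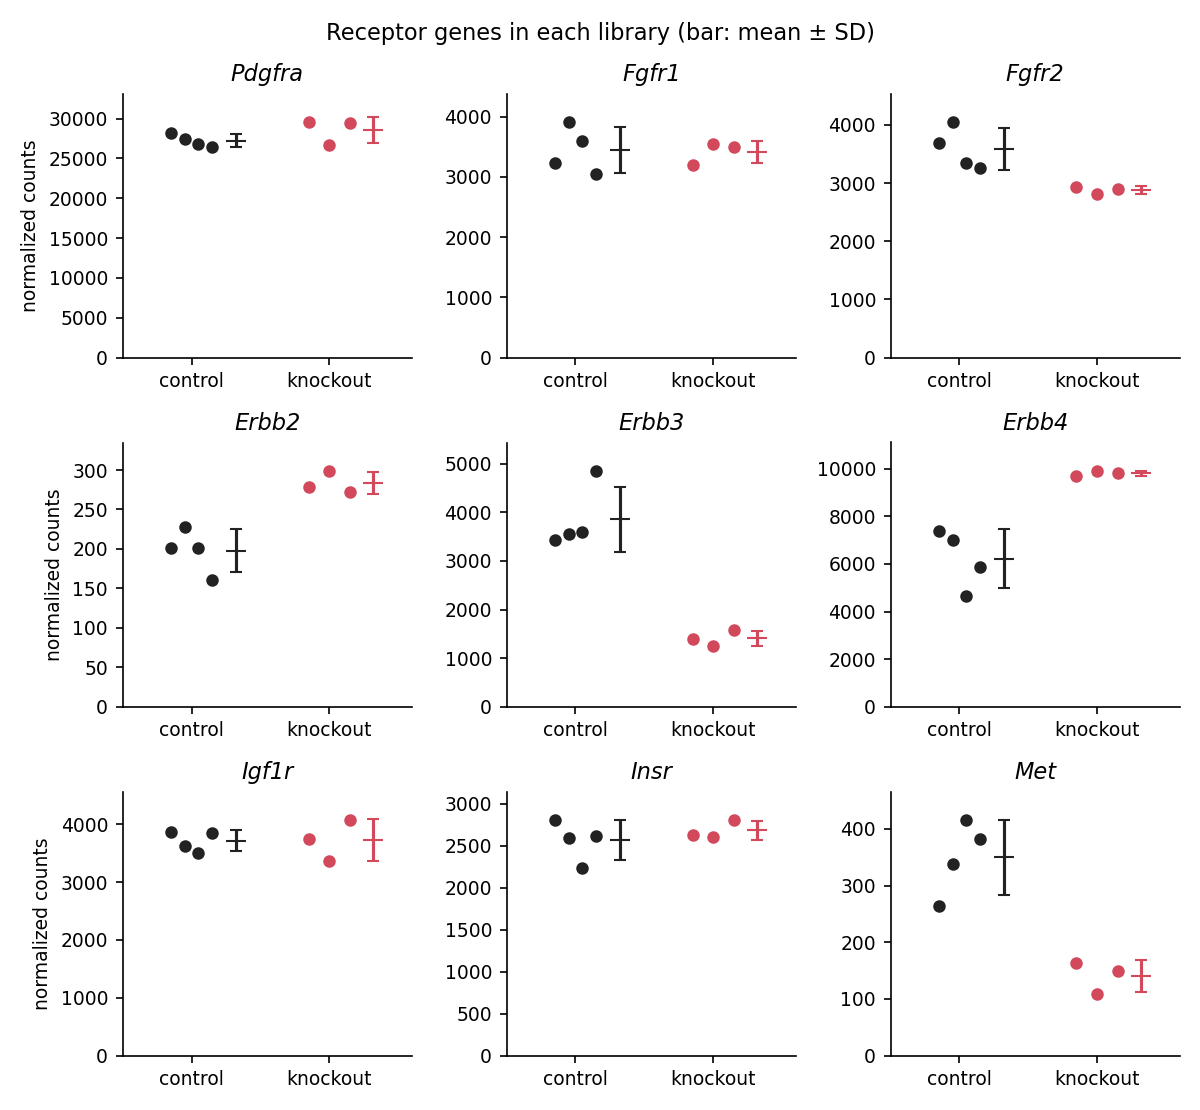
Normalized counts (vertical axes, each starting at 0) of the 9 receptor genes in the 4 control (black) and 3 knockout (red) libraries, with 1 point per library and the mean ± SD beside the points. Erbb3, Met and Fgfr2 lie lower and Erbb4 and Erbb2 higher in every knockout library than in any control library, while the groups overlap for the other 4 genes.

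**Figure D2:**
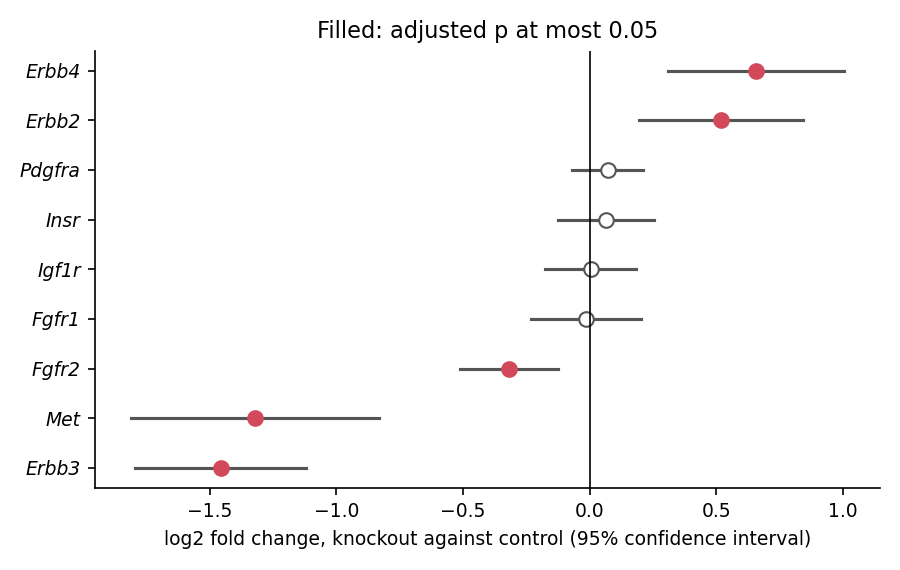
Log2 fold changes of the 9 receptor genes, knockout against control, with lines for 95% confidence intervals from edgeR and filled points for an adjusted p of at most 0.05. The intervals of Erbb3 (-1.80 to -1.12) and Met (-1.81 to -0.83) lie farthest from 0, and those of Pdgfra, Insr, Igf1r and Fgfr1 include 0.

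Levels of different genes were compared per length, as CPM (scaled by TMM) per kilobase of counted exon. Pdgfra stood far above the others, at 61.8 ± 1.77 (SD, n = 4) in controls and 64.9 ± 3.68 (SD, n = 3) in knockouts, which was 53.8% and 57.1% of the summed level of all 9 genes. In controls the order went on with Erbb3 (14.6 ± 2.53), Erbb4 (11.5 ± 2.28), Fgfr1 (7.94 ± 0.89) and Fgfr2 (7.90 ± 0.80), followed by Igf1r (5.03 ± 0.24), Insr (4.24 ± 0.39), Met (1.04 ± 0.20) and Erbb2 (0.86 ± 0.12). Neighbours from Erbb3 down to Fgfr2 overlapped in their ranges over libraries, as did Met and Erbb2. In knockouts Erbb4 was in second place at 18.1 ± 0.20, ahead of Fgfr1 (7.86 ± 0.43), Fgfr2 (6.34 ± 0.14) and Erbb3 (5.31 ± 0.60), and Met was last at 0.42 ± 0.084. There the ranges of Erbb3 and Igf1r overlapped, as did those of Igf1r and Insr. The rank differed between the groups for 6 of 9 genes, and the summed level of the 9 did not separate the groups (109 to 118 in controls, 108 to 117 in knockouts).

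**Figure D3:**
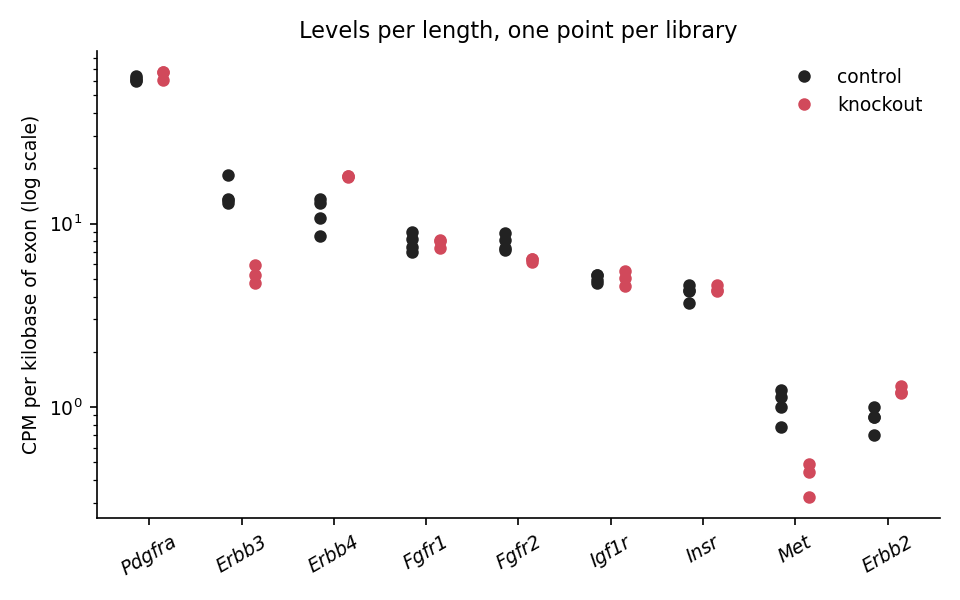
Level per length of the 9 receptor genes (CPM per kilobase of exon, log scale) in control (black) and knockout (red) libraries, ordered by the control mean. Pdgfra lies near 62 in controls and 65 in knockouts, and Erbb3 lies above Erbb4 in the control means but below it in each knockout library.

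The ErbB genes showed the largest changes in both directions. Erbb3, on chromosome 10 of GRCm38 from 128567523 to 128589652 (minus strand), encodes a neuregulin receptor with little kinase activity of its own that signals as a partner of other ErbB proteins. It had 3423, 3553, 3594 and 4855 normalized counts in control replicates 1 to 4 and 1388, 1254 and 1569 in knockout replicates 1 to 3. All controls thus lay far above the highest knockout, and control replicate 4 stood apart above the other controls. The mean fell from 3856 ± 670 to 1404 ± 158 or 36.4% of that of controls (log2 fold change -1.46 with standard error 0.15 and 95% confidence interval -1.80 to -1.12, edgeR adjusted p = 0.000838). This call held in all 18 alternative analyses, and without control replicate 4 the log2 fold change was -1.31 (adjusted p = 0.000676). The level of mature oligodendrocyte markers, which fell by 2.06 in the median of their log2 fold changes, moved in the same direction, and its part was not tested.

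Erbb4, on chromosome 1 from 68032186 to 69108059 (minus strand), encodes a neuregulin receptor with an active kinase that is also known from interneurons. It had 7396, 7004, 4643 and 5864 normalized counts in controls and 9701, 9916 and 9838 in knockouts. All knockouts lay within a narrow range above the highest control, whereas the controls were spread, with replicate 3 lowest. The mean rose from 6227 ± 1240 to 9818 ± 109 (1.58-fold, log2 fold change 0.66, standard error 0.15, adjusted p = 0.0190). Without knockout replicate 1 or 2 the adjusted p was 0.0517 and 0.0647, at log2 fold changes of 0.68 and 0.65. Neuron markers were higher in the same libraries, with 9 of 9 tested markers passing and a median log2 fold change of 1.91. So were astrocyte markers, with 8 of 8 and a median of 0.74. Of the 7 OPC markers, 3 passed as higher and none as lower, with a median of 0.33. Their part in the level of Erbb4 was not tested.

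Erbb2, on chromosome 11 from 98412470 to 98437716 (plus strand), encodes the ErbB receptor that binds no known ligand and acts as the shared partner of the others. With 201, 228, 201 and 161 normalized counts in controls and 278, 299 and 273 in knockouts it was among the least abundant receptors, and the groups did not overlap. Its mean rose from 198 ± 27.7 to 283 ± 13.9 (log2 fold change 0.52, standard error 0.14, adjusted p = 0.0342). This call was close to the threshold. With the replicate number as a block the log2 fold change was 0.43 and the edgeR adjusted p 0.0620. That fit also takes control replicate 4 out of the comparison, as no knockout has this number. Without control replicate 4 and with no block the values were 0.45 and 0.0404. The adjusted p was also above 0.05 without control replicate 1 (0.0528) or 3 (0.0554) and without knockout replicate 1 (0.0739), 2 (0.114) or 3 (0.0640). Egfr, the remaining ErbB receptor gene, is named here after its values were seen, with 538 ± 46.8 and 813 ± 248 normalized counts. Its log2 fold change was 0.60 (edgeR adjusted p = 0.0567), and 0.0339 was the adjusted p with the block. It also passed with DESeq2 (0.0245), with total counts (0.0387) and with no filter on low counts (0.0455).

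Since Erbb3 was lower and Erbb4 higher, the makeup of the 3 ErbB genes (without Egfr) differed while their sum did not separate the groups. Their summed level per length was 23.0 to 29.9 in controls and 24.3 to 25.2 in knockouts. Erbb3 made up 47.2%, 49.2%, 59.0% and 61.5% of it in controls and 21.6%, 19.5% and 23.5% in knockouts. Erbb4 made up 36.2% to 49.6% in controls and 71.8% to 75.1% in knockouts, and Erbb2 2.35% to 3.82% and 4.72% to 5.37%. Expressed as a ratio within each library, the level of Erbb4 was 0.588 to 1.05 times that of Erbb3 in controls and 3.05 to 3.85 times in knockouts. These ratios use both genes of the calls above and are a description of them. They compare genes within a library, so that a scaling of the whole library does not alter them.

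**Figure D4:**
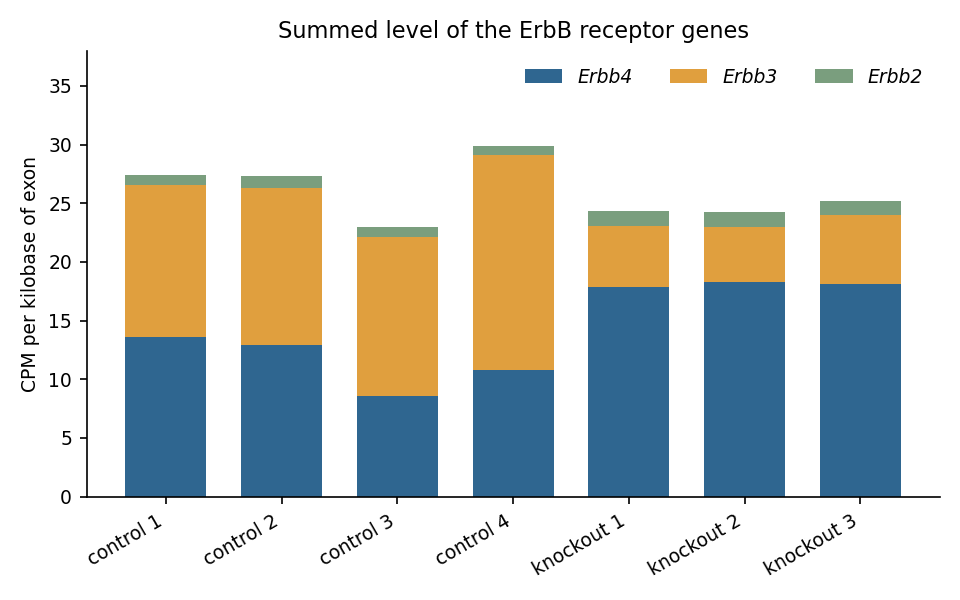
Level per length (CPM per kilobase of exon, stacked bars from 0) of Erbb4, Erbb3 and Erbb2 in each of the 7 libraries. The bars sum to 23.0 to 29.9 in controls and 24.3 to 25.2 in knockouts, and the Erbb3 part shrinks from 47.2% to 61.5% in controls to 19.5% to 23.5% in knockouts.

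Met, on chromosome 6 from 17463800 to 17573980 (plus strand), encodes the receptor for hepatocyte growth factor. It had 263, 338, 416 and 383 normalized counts in controls and 164, 109 and 149 in knockouts, with replicate 1 the lowest control and still above each knockout. The mean fell from 350 ± 66.1 to 141 ± 28.4 (40.3% of the control mean, log2 fold change -1.32, standard error 0.21, 95% confidence interval -1.81 to -0.83, edgeR adjusted p = 0.00562). Leaving out control replicates 3 and 4, which had high fibroblast markers, gave -1.11 and an adjusted p of 0.0257. Among the 4 libraries with a ribosomal RNA share above 10% the adjusted p was 0.0506 at a log2 fold change of -1.08. Although this gene was the least abundant receptor in knockouts, its level rested on at least 91 counts in every library.

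Fgfr2, on chromosome 7 from 130162451 to 133123350 (minus strand), and Fgfr1, on chromosome 8 from 25513654 to 25575718 (plus strand), encode FGF receptors with overlapping ligands. Fgfr2 had 3696, 4052, 3338 and 3267 normalized counts in controls and 2930, 2806 and 2899 in knockouts. The knockouts lay close together below the lowest control, and the mean fell from 3588 ± 362 to 2879 ± 64.8 (log2 fold change -0.32, standard error 0.08, adjusted p = 0.0306). This small change lost its call without control replicate 1 (adjusted p = 0.0594) and without knockout replicate 1 (0.0749), 2 (0.102) or 3 (0.0635), each from edgeR. The call was also lost in edgeR with total counts (0.108) and among libraries with a ribosomal RNA share above 10% (0.101). Fgfr1 had 3227, 3916, 3596 and 3051 normalized counts in controls and 3201, 3545 and 3490 in knockouts, so that the knockouts lay inside the control range. The 95% confidence interval of its log2 fold change of -0.01 was -0.23 to 0.20 (adjusted p = 0.932). The ratio of Fgfr1 to Fgfr2 per length was 0.913 to 1.13 in controls and 1.14 to 1.32 in knockouts. Of the counted exon bases of Fgfr2, 3.04% are shared with Ctbp2 on the same strand, so its counts carry that uncertainty.

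Pdgfra, the receptor for PDGF-AA and a marker of OPCs, lies on chromosome 5 from 75152292 to 75198215 (plus strand). It had 28217, 27470, 26814 and 26440 normalized counts in controls and 29606, 26736 and 29484 in knockouts. Knockout replicate 2 lay within the control range and the other two above it, and the log2 fold change was 0.07 (95% confidence interval -0.07 to 0.21, edgeR adjusted p = 0.451). The upper end of this interval lies below the estimates of Erbb2 and Erbb4, and its lower end lies above those of Fgfr2, Met and Erbb3. Of its exon bases, 6.5% are shared with Gm42802, Gm42803 and Mir7025, and the strand setting of the counting is not given in the sources used here. Kit, the receptor for stem cell factor, lies farther along the same chromosome from 75574916 to 75656722, and it fell from 1690 ± 317 to 654 ± 43.0 normalized counts (log2 fold change -1.37, adjusted p = 0.00142).

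Igf1r and Insr encode the closely related receptors for IGF1 and insulin. Igf1r, on chromosome 7 from 67952827 to 68233668 (plus strand), had 3874, 3632, 3503 and 3856 normalized counts in controls and 3744, 3361 and 4078 in knockouts, with knockouts on both sides of the control range. Its 95% confidence interval ran from -0.17 to 0.18 (edgeR adjusted p = 0.976). The gene lies 4.01 Mb from the targeted Klf13 locus on the same chromosome. Insr, on chromosome 8 from 3122061 to 3279617 (minus strand), had 2810, 2589, 2239 and 2618 normalized counts in controls and 2631, 2609 and 2810 in knockouts, and the groups overlapped. Its log2 fold change was 0.07 (95% confidence interval -0.12 to 0.26, adjusted p = 0.613). The ratio of Igf1r to Insr per length also overlapped, at 1.13 to 1.28 in controls and 1.05 to 1.19 in knockouts.

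The 5 called receptors were also looked at within libraries of like ribosomal RNA share, where their directions are fixed because the groups do not overlap. Above a share of 10% (2 controls, 2 knockouts) the log2 ratio of the group means was -1.49 for Erbb3, -1.04 for Met, -0.26 for Fgfr2, 0.56 for Erbb4 and 0.60 for Erbb2. Below it (2 controls, 1 knockout) the ratios were -1.51, -1.79, -0.40, 0.77 and 0.48 in the same order. These values are means without a test.

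KLF13 binds GC-rich sequence, so the promoters of the called receptors are shown with matches to the Klf motif that the study's methods give, spelled out as 6 hexamers and searched on both strands. The hexamer ACGCCC is present in 13.6% of all promoter windows, while ACACCC is found in 16.0% of them and ACTCCC in 18.1%. More common still are CCGCCC in 35.7% of windows, then CCACCC with a share of 31.5%, and finally CCTCCC with 42.4%. RefSeq promoter windows on GRCm38.p6, 250 bases before to 50 after the start, were matched for 6 of the 9 genes and not for Fgfr1, Erbb3 and Insr. Windows of this length hold at least 1 match in 76.8% of all 32841 promoters, with a median of 2, so a match is common. There were 4 matches for Erbb2, 4 for Met, 3 for Pdgfra, 2 for Igf1r, 1 for Erbb4 and 0 for Fgfr2, and overlapping matches were counted singly. The bases before the start of transcription are printed 5′ to 3′ on the strand of the gene, with matches in capitals, for 2 genes that rose (Erbb4, chr1:69108060-69108309, and Erbb2, chr11:98412234-98412469) and 2 that fell (Met, chr6:17463707-17463799, and Fgfr2, chr7:130266809-130267058).
Erbb4: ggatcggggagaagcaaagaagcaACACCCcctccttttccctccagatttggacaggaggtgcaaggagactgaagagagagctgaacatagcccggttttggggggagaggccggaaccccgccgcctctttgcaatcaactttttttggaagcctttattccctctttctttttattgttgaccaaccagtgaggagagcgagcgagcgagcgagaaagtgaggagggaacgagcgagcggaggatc
Erbb2: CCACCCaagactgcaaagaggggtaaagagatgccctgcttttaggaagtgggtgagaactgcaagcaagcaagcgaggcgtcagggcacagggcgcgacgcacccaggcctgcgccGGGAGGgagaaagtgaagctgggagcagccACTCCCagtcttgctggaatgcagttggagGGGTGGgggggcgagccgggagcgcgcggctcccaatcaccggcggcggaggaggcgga
Met: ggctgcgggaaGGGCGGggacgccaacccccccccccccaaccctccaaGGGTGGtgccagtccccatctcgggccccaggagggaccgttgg
Fgfr2: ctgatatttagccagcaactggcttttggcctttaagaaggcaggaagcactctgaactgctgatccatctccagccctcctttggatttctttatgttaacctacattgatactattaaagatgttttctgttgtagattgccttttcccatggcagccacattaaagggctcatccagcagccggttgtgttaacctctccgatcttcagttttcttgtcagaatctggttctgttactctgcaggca
Erbb2, which rose, and Met, which fell, had 4 matches each in their windows. A relation between the number of matches and the direction of change was not tested. Of the 4 matches of Met, 2 lie in the stretch shown. The Fgfr2 window lies inside the annotated span of the gene, which a long transcript extends upstream. A match of 6 letters is a description of the sequence, and binding was not analysed here.

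The ligands, coreceptors and signalling genes around the receptors were taken from lists by function. Among the 11 tested ligands of the PDGF and FGF families, 4 were lower and 3 higher (median log2 fold change -0.19, against -0.0037 over all genes tested, of which 12.2% were lower and 11.6% higher). Without knockout replicate 3 the counts were 2 lower and 1 higher, and without knockout replicate 2 none was higher. Pdgfa, the ligand of PDGFRA, fell from 4398 ± 409 to 3243 ± 293 normalized counts (log2 fold change -0.44, edgeR adjusted p = 0.0147), a call that was lost without knockout replicate 2 (0.0613) or 3 (0.0589). Fgf7 fell from 283 ± 50.4 to 70.0 ± 17.8 (log2 fold change -2.03, adjusted p = 0.00168), with each control at 231 or more and each knockout at 81.2 or less. Fgf22, at low counts, had a log2 fold change of -1.22 (adjusted p = 0.0405) and passed without control replicate 1 or knockout replicate 2 and was lost without any of the other 5 libraries (largest adjusted p 0.122). Fgf1 rose from 1251 ± 355 to 2326 ± 314 (log2 fold change 0.90, adjusted p = 0.0270), a call lost without control replicate 3 (0.0526), knockout replicate 2 (0.0979) or 3 (0.0571). Fgf13, an intracellular member of the family that does not activate FGF receptors, rose from 312 ± 73.9 to 597 ± 86.4 (log2 fold change 0.94, adjusted p = 0.0164, and 0.0656 without knockout replicate 2). Pdgfb did not pass (adjusted p = 0.701) and was highest in control replicate 3, at 1113 normalized counts, the library with high microglia markers.

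Among the 10 ligands of ErbB receptors, 3 were lower and none was higher at an adjusted p of at most 0.05 (against 12.2% and 11.6% of all genes tested). The median log2 fold change of the list was -0.20. With DESeq2 or limma voom 1 ligand gene was higher. In edgeR 2 were higher at an unadjusted p under 0.05, a looser threshold whose share over all genes tested is not given here. Without control replicate 4 the count of higher genes in edgeR was 1. The lower genes encode epidermal growth factor receptor ligands, of which betacellulin (Btc) and epiregulin (Ereg) also bind ERBB4. Btc fell from 105 ± 18.2 to 26.3 ± 8.75 normalized counts (log2 fold change -2.04, edgeR adjusted p = 0.00293). Areg, which encodes amphiregulin, had 19, 18, 29 and 37 counts in controls and 0, 1 and 4 in knockouts (adjusted p = 0.00422), so its fold change rests on few counts. Ereg had 13.5, 12.1, 60.6 and 51.5 normalized counts in controls and 9.03, 4.81 and 6.09 in knockouts. It was highest in control replicates 3 and 4, the libraries with high fibroblast markers, and its adjusted p of 0.0461 became 0.206 without them and 0.0877 with the replicate block. Leaving out control replicate 3 or 4 or any 1 knockout gave values from 0.0786 to 0.152. Neuregulin 1 (Nrg1), the ligand of ERBB3 and ERBB4, had 564 ± 118 normalized counts in controls and 360 ± 86.5 in knockouts without overlap, and it did not pass (log2 fold change -0.65, adjusted p = 0.0704). Nrg3, which encodes another ligand of ERBB4, and Egf are named after their values were seen. Nrg3 had 33.8, 34.2, 28.6 and 12.2 normalized counts in controls and 56.0, 59.1 and 58.6 in knockouts, higher without overlap, and missed the threshold (log2 fold change 1.10, edgeR adjusted p = 0.0515). It passed with DESeq2 (0.0142), limma voom (0.0348), a filter of at least 10 counts in every library (0.0423), the ribosomal RNA share in the fit (0.0452) and without control replicate 4 (0.0285). Egf was also higher in each knockout library, at 58.2 ± 18.7 and 91.2 ± 3.69 normalized counts (log2 fold change 0.65, adjusted p = 0.128). Tgfa, the most abundant ligand gene of the list at 16692 ± 2615 and 14100 ± 1267, and Hbegf also did not pass (adjusted p = 0.231 and 0.264), though Tgfa passed without control replicate 3 (0.0325). Nrg1 passed with DESeq2 (0.0204) and, in edgeR, without control replicates 3 and 4 (0.0495).

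None of the 3 tested insulin-like and HGF ligand genes passed (Igf1, Hgf and Igf2, edgeR adjusted p = 0.634, 0.379 and 0.122), against 23.8% of all genes tested. At an unadjusted p under 0.05 in edgeR 1 of these 3 ligand genes was lower and 0 were higher. The share over all genes tested at this looser threshold is not given here. With DESeq2 Igf2 passed (0.0203), and without control replicate 3 Hgf did (0.0481). Igf1 had 8551 normalized counts in control replicate 3 and 2148 to 4621 in the other 6 libraries. Of the 7 IGF binding protein genes, Igfbp6 alone passed (adjusted p = 0.0473), against 23.8% of all genes tested. It had 18.9, 23.1, 73.2 and 79.6 normalized counts in controls and 10.8, 13.7 and 11.4 in knockouts. The adjusted p was 0.194 without control replicates 3 and 4 and 0.0957 with the replicate block, and the call was also lost without control replicate 3 (0.0858) or 4 (0.106) or any 1 knockout (0.122 to 0.133). Without control replicate 1 or 2 the list had 2 lower genes. Igfbp5, Igfbp2 and Igfbp3, the most abundant of them, had adjusted p of 0.137, 0.448 and 0.509.

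Of 32 other growth factor receptor tyrosine kinase genes, 22 were tested, of which 3 were lower and 1 higher (against 12.2% and 11.6% of all genes tested). The median log2 fold change of the list was -0.15, and 2 were higher with the replicate block or without control replicate 3. Besides Kit the lower genes were Tyro3 and Ddr1. Tyro3, a receptor for GAS6 and protein S, fell from 4078 ± 458 to 1831 ± 112 normalized counts (log2 fold change -1.16, edgeR adjusted p = 0.000378). Ddr1, a collagen receptor, fell from 23797 ± 2810 to 11701 ± 1398 (log2 fold change -1.02, adjusted p = 0.00171). Ntrk2, the receptor for BDNF, rose from 17612 ± 2329 to 28287 ± 1564 (log2 fold change 0.68, adjusted p = 0.00559). These 4 calls held with each library left out in turn. Csf1r, the receptor for colony stimulating factor 1 on microglia, did not pass (adjusted p = 0.467) and reached 13150.5 normalized counts in control replicate 3 against 1793 to 5433 elsewhere.

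**Figure D5:**
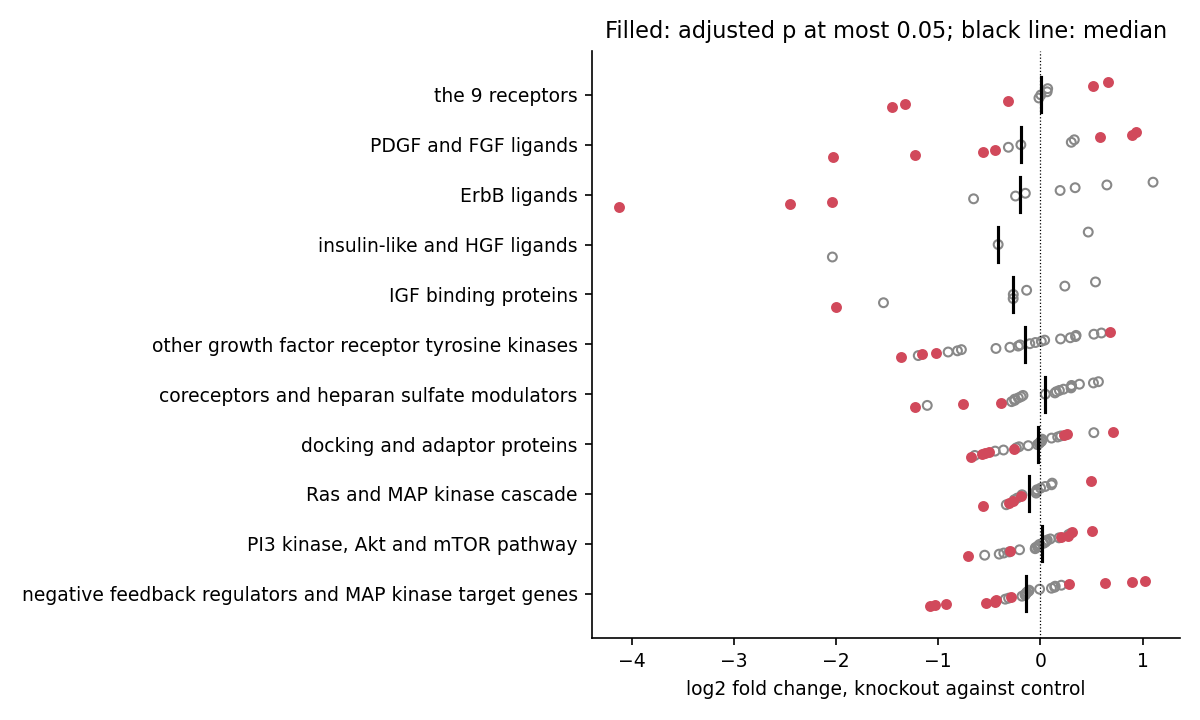
Log2 fold changes (horizontal axis, knockout against control) of the tested genes of each list, with 1 point per gene, filled points for an adjusted p of at most 0.05 and a black line at the median of the list. Medians lie between -0.41 for the insulin-like and HGF ligands and 0.05 for the coreceptors, and most lists hold genes called in both directions.

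Among 21 coreceptors and heparan sulfate modulators, 3 were lower and none was higher with edgeR (against 12.2% and 11.6% of all genes tested). The higher genes numbered 2 under the replicate block and 1 with DESeq2 or limma voom. At an unadjusted p under 0.05 in edgeR 4 were higher, and the share over all genes tested at this looser threshold is not given here. Without control replicate 4 or knockout replicate 1 the lower genes numbered 1 and 0, and without control replicate 2 or 3 the higher genes numbered 2 and 4. Cd44, a hyaluronan receptor that also assists MET, had a log2 fold change of -1.22 (adjusted p = 0.0280), and it was highest in control replicates 3 and 4. Without these the values were -0.72 and 0.0618, and the call was also lost without control replicate 4 (0.0690), knockout replicate 1 (0.103) or 2 (0.104). Syndecan 1 (Sdc1), which carries heparan sulfate, fell from 1177 ± 231 to 697 ± 12.7 normalized counts (adjusted p = 0.0116, and 0.0507 without knockout replicate 1). Gpc1 had a log2 fold change of -0.38 (adjusted p = 0.0388) and passed without control replicate 1 or knockout replicate 2, whereas the call was lost without any of the other 5 libraries (largest adjusted p 0.101). Sulf2, Lrp1 and Sdc3, the most abundant of the list, had adjusted p of 0.0800, 0.117 and 0.600, and Lrp1 passed without control replicate 3 (0.0237).

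Below the receptors, 5 of 24 tested docking and adaptor genes were lower and 3 higher (against 12.2% and 11.6% of all genes tested). With the replicate block 1 was higher. Without any 1 knockout 3 were lower and 0 higher, and without control replicate 1, 2 or 4 the higher genes numbered 1, 1 and 0. Gab1, a docking protein below EGFR family receptors and MET, fell from 12074 ± 262 to 8536 ± 203 normalized counts (log2 fold change -0.50, edgeR adjusted p = 0.000702). Ptpn11, which encodes the phosphatase SHP2 that carries signals from receptors to Ras, fell from 25875 ± 1540 to 17747 ± 1111 (log2 fold change -0.54, adjusted p = 0.00287). Grb14, an adaptor that inhibits the insulin receptor, fell from 610 ± 20.7 to 410 ± 19.5 (log2 fold change -0.58, adjusted p = 0.00344). The calls of these 3 genes held with each library left out. Shc4 (log2 fold change -0.68, adjusted p = 0.0212) lost its call without any 1 knockout (0.0593 to 0.0808). Sh2b2 (0.71 and 0.0345) held its call only when control replicate 3 was the library left out (0.0518 to 0.122 without the others), and Crk did not pass (adjusted p = 0.190).

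In the Ras and MAP kinase cascade, 4 of 16 genes were lower and 1 was higher (against 12.2% and 11.6% of all genes tested). The lower genes numbered 2 without control replicate 1, 2 or 3 and 1 without control replicate 4 or any 1 knockout, and 0 were higher without any library but control replicate 2. Mapk3, which encodes ERK1, fell from 6966 ± 534 to 4710 ± 76.9 normalized counts (log2 fold change -0.56, edgeR adjusted p = 0.00195). Nras, Rps6ka2 and Ksr1 had log2 fold changes of -0.27, -0.30 and 0.50 (adjusted p = 0.0317, 0.0348 and 0.0493), and each lost its call without any library but 1, which was control replicate 2 for Nras and Ksr1 and control replicate 3 for Rps6ka2. The largest adjusted p in these analyses was 0.103, 0.125 and 0.154. Nf1 did not pass (adjusted p = 0.273, and 0.0161 in the fit that includes the ribosomal RNA share). The PI3 kinase, Akt and mTOR list held 24 genes, of which 2 were lower and 4 higher (against 12.2% and 11.6% of all genes tested). With the replicate block 4 were lower and 1 was higher. Without knockout replicate 2 or 3 1 was lower, and the higher genes numbered 2 without control replicate 3 and 1 without control replicate 4 or any 1 knockout. Pik3r3, a regulatory subunit of PI3 kinase, fell from 23927 ± 1795 to 14626 ± 305 (log2 fold change -0.71, adjusted p = 0.000835). Pik3r1, another regulatory subunit, rose from 17202 ± 1768 to 21285 ± 712 (log2 fold change 0.31, adjusted p = 0.0393), a call that was lost with the block (0.0594) and without any library other than control replicate 1 or 2 (0.0583 to 0.124). Gsk3b did not pass (adjusted p = 0.586).

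Of 26 tested feedback regulators and target genes of the MAP kinases, 8 were lower and 4 higher (against 12.2% and 11.6% of all genes tested). The median log2 fold change of the list was -0.14, and 6 were lower and 4 higher with the replicate block. The lower genes numbered 5 without control replicate 1 or 3 and 4 without control replicate 4 or knockout replicate 2 or 3, and the higher genes numbered 2 without knockout replicate 2. Ccnd1, which encodes cyclin D1, fell from 11582 ± 2392 to 5460 ± 1072 normalized counts (log2 fold change -1.09, edgeR adjusted p = 0.00850). Socs2, an inhibitor of cytokine and growth hormone signalling, rose from 236 ± 23.2 to 479 ± 69.2 (log2 fold change 1.02, adjusted p = 0.00267). Both calls held with each library left out. The immediate early gene Fos had a log2 fold change of -1.03 (adjusted p = 0.020), which lost its call without control replicate 4 (0.0513) or knockout replicate 2 (0.0736) or 3 (0.0611). Spred1 and Cbl, abundant members of the list, had adjusted p of 0.173 and 0.430. The Sprouty genes, feedback inhibitors of receptor signalling, are named after their values were seen, as is Errfi1 below. Spry1, Spry2 and Spry4 had log2 fold changes of -0.44, -0.29 and -0.44 (adjusted p = 0.0469, 0.0225 and 0.0389). With the replicate block Spry1 (0.0926) and Spry4 (0.0537) lost their call, and both also lost it without any library but knockout replicate 1 (up to 0.158 and 0.101). Spry2 lost its call without knockout replicate 1 (0.0772) or 3 (0.0670). Errfi1, a feedback inhibitor of ErbB receptor kinases, fell from 1284 ± 124 to 678 ± 46.3 (log2 fold change -0.92, adjusted p = 0.00116), with the lowest control at 1100.4 and the highest knockout at 731.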

How the data were processed

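Gene counts were analysed for 7 libraries, 4 from wildtype control and 3 from Klf13 knockout cultures, grouped by the sample labels. The deposited values are counts of reads per gene without normalization, made by the authors by trimming with Trimmomatic 0.36, mapping with STAR 2.5.2b to GRCm38 and counting unique hits within exons with Subread 1.5.2 (featureCounts). The annotation release and the strand setting are not given in the sources used here. Reads that map to several genes were not counted, which can lower genes with near-identical copies. The count files also hold positions and exon lengths, and those of the 9 receptor genes equal GENCODE M21. Symbols were found for 48970 of 49315 identifiers.

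In R 4.3.3 and edgeR 4.0.16, low genes were removed by filterByExpr, libraries were scaled by TMM and groups were compared with a robust quasi-likelihood test with the group as its only term, two-sided, with Benjamini-Hochberg adjustment over 18352 genes. Genes with an adjusted p of at most 0.05 are said to have risen or fallen. Normalized counts are counts divided by the TMM-scaled library size and multiplied by its mean, 43976288. Levels per length are CPM per kilobase of exon, with TMM-scaled library sizes. Depth was 24507471 to 59596479 counts per library, and no pair of libraries of the same group agreed within sampling noise.

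The members and gene lists were chosen with earlier results of these data known, so no list was tested as a set. Besides the receptors and Klf13, genes were named by rule: in each pathway list the 3 genes with the highest mean and up to 3 with the largest change among those that passed without overlap. A few genes named after their values were seen are marked as such. The values of some genes picked by the rule are not reported here.

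Deviations from the group means on the log2 CPM scale correlated between control and knockout libraries with the same replicate number at 0.113, 0.463 and 0.168 over 18352 genes, and between those with different numbers at -0.529 to 0.197. A fit with this number as a block was added for that reason, although the labels do not say what it marks. Replicate number 4 occurs among controls only, so control replicate 4 adds nothing to the group difference in that fit. With a pseudocount of 0.5 on normalized counts the first pair stood at 0.0992. Alternatives were DESeq2 1.42.0, its size factors, total counts, library sizes without the genes that collect ribosomal RNA, other filters on low counts, the ribosomal RNA share as a covariate, limma voom (limma 3.58.1) and each library left out. Fits without control replicates 3 and 4, and of libraries with a ribosomal RNA share above 10% only, were added after seeing the data.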

Additional observations from a re-analysis of the deposited data

Results flagged for a closer look

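In each of 82 genes (the 9 receptors, Klf13 and the genes named by rule) the 4 controls were checked for a library that stood apart, and 10 genes had one. By chance about 1 in 20 groups is picked out in this way. Groups of 3 knockouts were not checked. Among the receptors the check picked out Erbb3, with 4855 normalized counts in control replicate 4 against 3423 to 3594 in the other controls and 1254 to 1569 in knockouts.

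Control replicate 3 was high in Pdgfb (1113 against 296 to 365 in the other controls), Igf1 (8551 against 2148 to 2758), Csf1r (13150.5 against 2507 to 3411), C1qa (21476 against 4595 to 4882), Cx3cr1 (15287 against 2839 to 3567) and Trem2 (5005 against 1236 to 1680). C1qa, Cx3cr1 and Trem2 belong to the list of microglia markers. Mapk3 was also highest in control replicate 3, at 7758 against 6597 to 6789. Lhfpl3, an OPC marker, had 11825 normalized counts in control replicate 4 against 8337 to 8741, and Tubb3, a neuron marker, was low in control replicate 1, at 3347 against 4196 to 4345.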

How the results depend on the processing

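Each of the 9 receptors was tested under 18 alternatives. Erbb3 passed in all 18 (log2 fold change -1.56 to -1.31) and Met in 17, and Erbb4, Fgfr2 and Erbb2 kept their call in 15, 12 and 8. Pdgfra, Fgfr1, Igf1r and Insr passed in none. The count of 2 higher receptors became 1 with total counts, with no filter on low counts, with the replicate block and without control replicates 3 and 4, 0 among libraries with a ribosomal RNA share above 10%, and 0 to 2 with each library left out in turn, where the 3 lower receptors became 2 to 3. With total counts 2 receptors were lower, and in the libraries above 10% 1 receptor was. The block changed no other receptor call than that of Erbb2.

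Among all genes tested, 12.2% were lower and 11.6% higher. The number of genes tested is given with each pathway list in the Results. Of the tested genes in these lists, 33 were lower and 16 higher. With each library left out in turn these were 18 to 28 and 4 to 17. Without a filter 10 were higher, without control replicates 3 and 4 20 were lower, and in the libraries above 10% 15 were lower and 6 higher. Over all genes, 4368 passed, 2167 to 3786 with a library left out, 2666 without control replicates 3 and 4 and 1675 in the libraries above 10%. With the fold threshold, 1294 passed, and the corresponding counts were 723 to 1387, 811 and 600. Leaving out libraries leaves fewer samples, and beyond that the cause was not tested. Each receptor had at least 91 counts in every library, whereas Areg, Ereg and Fgf22 rest on few counts.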
